A study of Mus musculus with 8 samples.

Results

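The collagen genes were the 44 gene symbols of the count data that consist of Col, a number, the letter a and a second number, out of 24460 genes counted. They fell into 11 fibrillar collagens, 6 basement membrane collagens (the chains of type IV) and 27 other collagens. RNA-Seq had been performed on mouse embryonic fibroblasts (MEFs), described as wild type and sub-confluent, after culture without RHPS4 (0 µM, 3 libraries) or with RHPS4 at 2 µM (3 libraries) or 10 µM (2 libraries). RHPS4 is a positively charged small molecule that binds G-quadruplexes (G4s), the four-stranded folds of guanine-rich DNA or RNA. The study asked what G4s do in mitochondria, and in live MEFs it found the ligand mainly in mitochondria at a low dose. It used RNA-Seq for mitochondrial transcripts and for the response of other genes at a low and a high dose. No strain, age or separate culture was given for any library, so that the tests measure only the spread between these libraries, which may be technical, and the exposure time of these libraries was not stated on its own. All 8 libraries were total RNA from the same kind of cell, and the 3 doses differed, as labelled, in RHPS4 alone.

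Collagens are triple helices of 3 chains, and each gene encodes a chain. Fibrillar collagens assemble into the ropes that give connective tissue its tensile strength, and a type I molecule joins 2 Col1a1 chains to 1 Col1a2 chain. Type IV chains form the sheet-like network of basement membranes, whose most widespread molecule holds 2 Col4a1 chains and 1 Col4a2 chain. The other collagens form beaded filaments (type VI), bridge or decorate fibrils (types IX, XII, XIV, XVI and related ones), anchor epithelia (type VII), build short-chain networks (types VIII and X) or span the plasma membrane (types XIII, XVII, XXIII and XXV). Fibroblasts are the main source of types I, III and VI in most tissues.

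Between 10455965 and 26688121 fragments were counted per library, so that 3 counts stood for 0.112 to 0.287 CPM, the counts of a gene scaled to the size of its library. This floor covers counting error only. Collagens took 0.966% to 1.13% of all counts, and mtDNA features took 13.2% to 14.4% at 0 µM, 7.40% to 8.26% at 2 µM and 5.33% to 6.32% at 10 µM. CPM below are scaled by TMM factors, which are meant to correct for shifts in composition and are not limited to that of mtDNA. The factors ran from 0.923 to 0.960 at 0 µM and were 1.09 and 1.10 at 10 µM. All 11 fibroblast or mesenchymal markers passed the filter on low counts, with a summed level of 5679 to 7116 CPM at 0 µM, 5972 to 6477 at 2 µM and 5394 to 6061 at 10 µM, although Lum stayed at or below 1.39 CPM. Marker sums did not exceed 5.07 CPM for epithelium, 6.19 for endothelium, 10.2 for blood (Hbb-bt and Hba-a1 at 0), 2.45 for muscle and 2.44 for fat, but ran from 73.8 to 149 CPM for cartilage or bone, mostly Sox9 and Acan, and from 51.9 to 77.6 CPM for neural markers, mostly Nes. Of these markers, Pdgfrb (fibroblast) and Nes were called lower at 10 µM, by −0.60 (adjusted p = 0.000248, edgeR) and −0.63 (adjusted p = 0.00367), and Tubb3 (neural) higher by 1.42 (adjusted p = 0.000351). Acan (cartilage) was lower by −0.57 (adjusted p = 0.00413), under the fold threshold, and Sox9 by −0.71 (adjusted p = 0.121). Their part in the changes below was not tested. As in any bulk sample, fewer cells of a type and less RNA per cell cannot be told apart in what follows.

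Types I and VI dominated the untreated cells. Levels were compared between genes as CPM per kb of exon, from the GENCODE models of GRCm38. Col1a2 was highest at 255 ± 6.0 CPM per kb (SD, n = 3), followed by Col6a1 at 231 ± 19.8, Col6a3 at 191 ± 5.38 and Col1a1 at 165 ± 36.2. The untreated libraries of Col1a2 and Col6a1 overlapped, as did those of Col6a3 and Col1a1, whereas Col6a1 lay above Col6a3 in every library and Col1a1 above the next gene. The next were Col4a1 at 66.8 ± 2.97, Col3a1 at 62.8 ± 1.04, Col5a2 at 57.9 ± 5.24 and Col5a1 at 46.2 ± 2.74. Of these, Col4a1 overlapped with Col3a1 and Col3a1 with Col5a2, and Col5a1 stood apart below Col5a2. These 8 genes held 83.9% ± 0.483 of the summed level of all 44 collagens. When counts were divided by the longest transcript instead, Col1a2 stood at 592 CPM per kb, because its models list more exon than any transcript holds. The order of the first 4 genes was the same on that scale, but Col3a1 moved to the fifth rank and Col4a1 to the eighth.

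Below these, Col6a2, the third common type VI chain, stood at 45.4 ± 6.64 CPM per kb and Col12a1, a fibril-associated collagen, at 42.9 ± 2.31, and their libraries overlapped. Col4a2 followed at 35.9 ± 0.239, Col16a1 at 22.4 ± 1.49, Col8a1 at 17.5, Col4a5 at 17.0, Col11a1 at 11.0, Col4a6 at 3.15, Col18a1 at 2.43 and Col7a1 at 1.02. Among these 8, neighbours in the order stood apart in all untreated libraries except Col8a1 and Col4a5. The remaining 26 genes did not exceed 0.734 CPM per kb at 0 µM. Among them were the cartilage chains Col2a1, Col9a1, Col9a2 and Col9a3, the type IV chains Col4a3 and Col4a4, and the transmembrane collagens Col13a1, Col17a1, Col23a1 and Col25a1. Of the 44 genes, 40 passed the filter on low counts and were tested. The 4 that did not, Col8a2, Col10a1, Col13a1 and Col26a1, had 1 to 13 counts in a library.

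**Figure D1:**
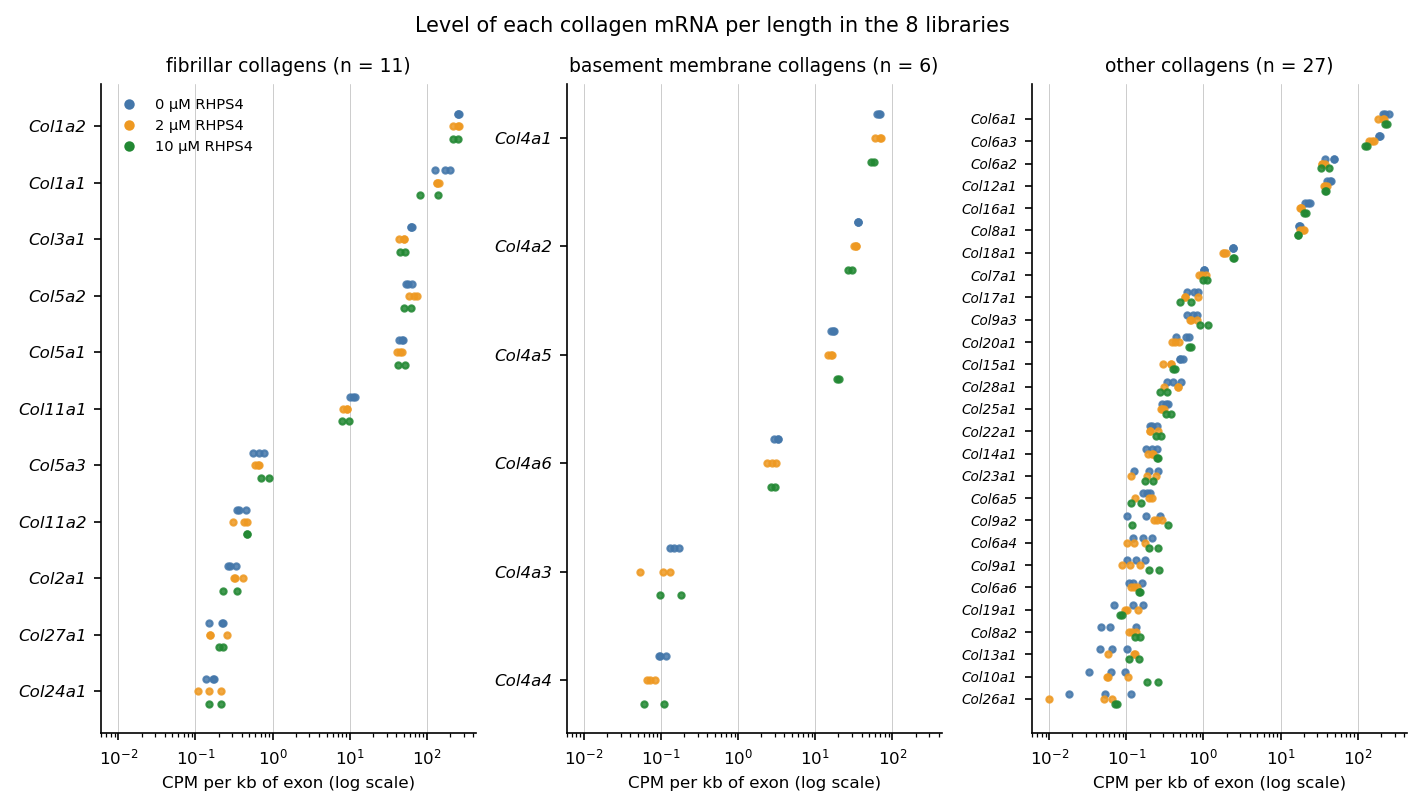
Level of each collagen mRNA as CPM per kb of exon on a log axis, with 1 point per library coloured by RHPS4 dose and genes in 3 panels by class. The 8 highest genes hold 83.9% of the summed untreated level, and in every panel the difference between genes is far larger than that between doses.

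In share of the summed untreated level per length, fibrillar collagens held 46.8%, basement membrane collagens 9.61% and the others 43.6%. In fibrillar collagens the 6 genes from Col1a2 to Col11a1 all lay at or above 11.0 CPM per kb while the other 5 lay below 1 CPM per kb, and type IV was divided likewise between Col4a1, Col4a2, Col4a5 and Col4a6 and the pair Col4a3 and Col4a4.

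Since RHPS4 is a G4 ligand, the promoters of the collagen genes were searched for guanine runs of the kind that can fold into a G4. The windows reached from 250 bases before to 50 bases after each gene's start in RefSeq (GRCm38.p6). The motif was 4 runs of at least 3 G spaced by 1 to 7 bases on either strand. Of 32851 windows of this length, 6110 (18.6%) held it, and of the first windows of 27025 genes 18.1% did. Windows were matched for 35 of the 44 collagen genes, and 14 (40.0%) held the motif. Of these, 3 were among 8 fibrillar, 0 among 5 basement membrane and 11 among 22 other collagens. For each collagen the window nearest its GENCODE start was taken, not the first one, so that these shares rest on windows chosen differently. Col1a1, Col2a1, Col4a3, Col5a2, Col9a3, Col12a1, Col14a1, Col22a1 and Col26a1 were not matched. The stretches of 7 genes above 1 CPM per kb that held the motif are printed, and whether RHPS4 binds them was not tested. They run 5′ to 3′ on the strand that carries the guanines, with the G runs in capitals:
Col1a2: GGGGGagcaGGGGaGGGagccgaGGGGGG
Col5a1: GGGcgttGGGGGcggtGGGGGGtGGGGG
Col6a1: GGGaGGGaGGGaGGG
Col6a2: GGGGGtGGGGGGagcGGGGGaGGG
Col8a1: GGGcaGGGattgagcGGGGGcggcGGG
Col16a1: GGGGaagcGGGacGGGcGGG
Col18a1: GGGcaGGGGcGGGacGGGG

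On the minus strand lay the Col1a2 stretch (chr6:4505540-4505568) and the Col6a2 stretch (chr10:76623758-76623781). The plus strand carried those of Col5a1 (chr2:27886343-27886370), Col6a1 (chr10:76726049-76726063), Col8a1 (chr16:57754781-57754807), Col16a1 (chr4:130047668-130047687) and Col18a1 (chr10:77166552-77166570). Only stretches of at most 30 bases that lay wholly upstream of the RefSeq start were printed. That all 7 lie upstream therefore follows from this choice and is not a finding about location. They ran from 4 bases before the start in Col6a1 to 172 in Col16a1. The Col1a2 and Col6a1 stretches fell inside the GENCODE gene models, which begin farther upstream. A match describes letters and is not a measured G4.

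No collagen mRNA was called at either dose. A call needed an adjusted p under 0.01 (edgeR quasi-likelihood test, Benjamini-Hochberg over 14296 genes) and a fold change over 1.5. At 2 µM, 0 of 40 were called, where 0.119% of all genes were called higher and 0.378% lower. At 10 µM, 0 of 40 were called against 1.95% higher and 1.14% lower, and between 10 and 2 µM 0 of 40 against 3.92% and 1.59%. At shares this small, 0 of 40 is near the background. By unadjusted p under 0.05, 0 were higher and 8 lower at 2 µM (10.1% and 11.2% of all genes), 2 higher and 6 lower at 10 µM (14.8% and 14.6%), and 7 higher and 4 lower between the doses (18.2% and 18.3%). DESeq2 called 0 of the 32 collagens with an adjusted p at 2 µM, 1 of 37 at 10 µM (Col6a3, lower) and 0 of 36 between the doses, where it called 0.929%, 3.99% and 6.68% of all genes.

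The 95% confidence interval lay within 1.5-fold either way for 26 of 40 collagens at 2 µM (64.4% of all genes), for 18 at 10 µM (55.4%) and for 16 between the doses (50%). For these genes a change past the fold threshold was outside the interval, and for the remainder it was not. Libraries of the 2 groups did not overlap for 1 higher and 10 lower collagens at 2 µM (12.7% and 12.9% of all genes) and for 5 higher and 9 lower at 10 µM (22.9% and 20%). Between the doses it was 14 higher and 5 lower (27.0% and 24.9%). At 2 µM the fitted change was negative for 30 of 40 collagens, beside 51.8% of all genes, at 10 µM for 22 of 40, beside 47.9%, and between the doses for 13 of 40, beside 46.9%. Both doses were compared with the same 3 untreated libraries.

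In summed counts the other collagens lay below their untreated range at both doses. Their sum was 4612, 4681 and 4726 CPM at 0 µM, 3813, 3972 and 3973 at 2 µM, with 3826 and 3781 at 10 µM, means of 4673 ± 57.1, 3919 ± 91.8 and 3804 ± 31.4 (SD, n = 3, 3 and 2). The fibrillar sum was 5821, 5956 and 6117 CPM at 0 µM, 5764, 5841 and 5044 at 2 µM, with 5746 and 4674 at 10 µM. Its untreated and 2 µM libraries overlapped, and the 10 µM libraries lay below the untreated ones but differed from each other by more than the distance of the nearer one from that range. The basement membrane sum was 903, 872 and 857 CPM at 0 µM, 875, 889 and 780 at 2 µM, with 797 and 721 at 10 µM, again lower at 10 µM in both libraries. Scaled by total counts alone, the other collagens still lay below their untreated range (3798 to 4160 against 4250 to 4485 CPM of total counts), whereas the fibrillar and basement membrane sums at 10 µM overlapped the untreated ones (5138 and 6247 against 5363 to 5773, and 793 and 867 against 809 to 836). These sums follow the few most abundant genes, above all Col1a2, Col6a3, Col6a1 and Col1a1, and carry no test.

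**Figure D2:**
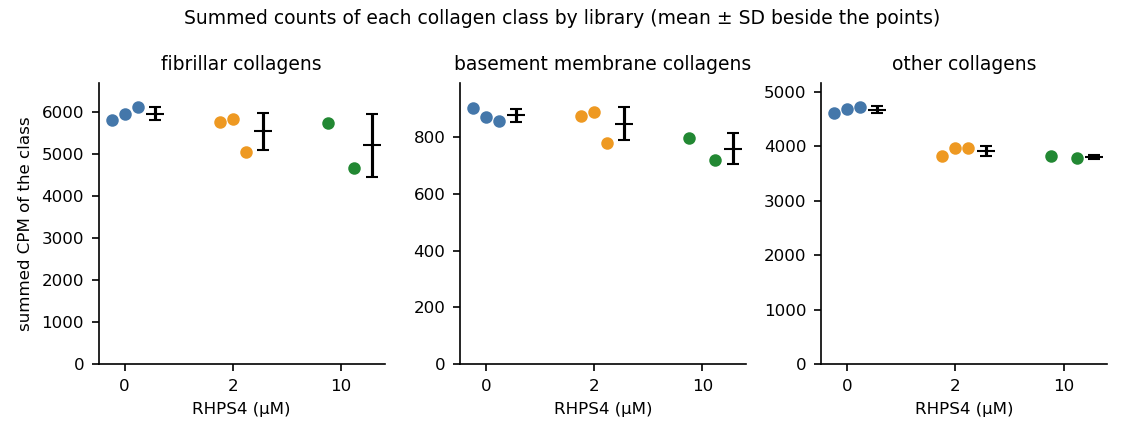
Summed CPM of the fibrillar, basement membrane and other collagens in each library against the RHPS4 dose in µM, with the mean ± SD in black beside the points. The other collagens lie between 3781 and 3973 CPM in all treated libraries, below the lowest untreated library at 4612, while fibrillar collagens overlap between 0 and 2 µM.

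By gene, class medians were small. The median log2 fold change at 2 µM was −0.09 for the 11 fibrillar, −0.16 for the 6 basement membrane and −0.13 for the 23 other collagens tested, beside −0.01 for all genes. At 10 µM the medians were −0.05, −0.19 and 0.0047, beside 0.02, and they turned to 0.17, 0.02 and 0.22 when scaled by total counts alone, which moved the median of all genes to 0.23. Between the doses they were 0.012, 0.14 and 0.19, beside 0.03. None of these medians was tested. Against 0 µM, the fibrillar and basement membrane medians were lower than the median of all genes under both scalings. Between the doses the basement membrane median was higher than that of all genes under both, with 0.28 beside 0.16 by total counts alone. Since counts were sparse in 26 collagens, the 18 with a mean of at least 10 CPM were also taken alone, a limit set after the levels were seen, in the gap between Col7a1 at 10.4 and Col5a3 at 4.65. Of these 18, 16 were lower and 2 higher at 2 µM, with a median of −0.18, and 13 were lower and 5 higher at 10 µM, with a median of −0.12. With total counts alone it was 13 lower and 5 higher at 2 µM, and 7 lower and 11 higher at 10 µM.

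**Figure D3:**
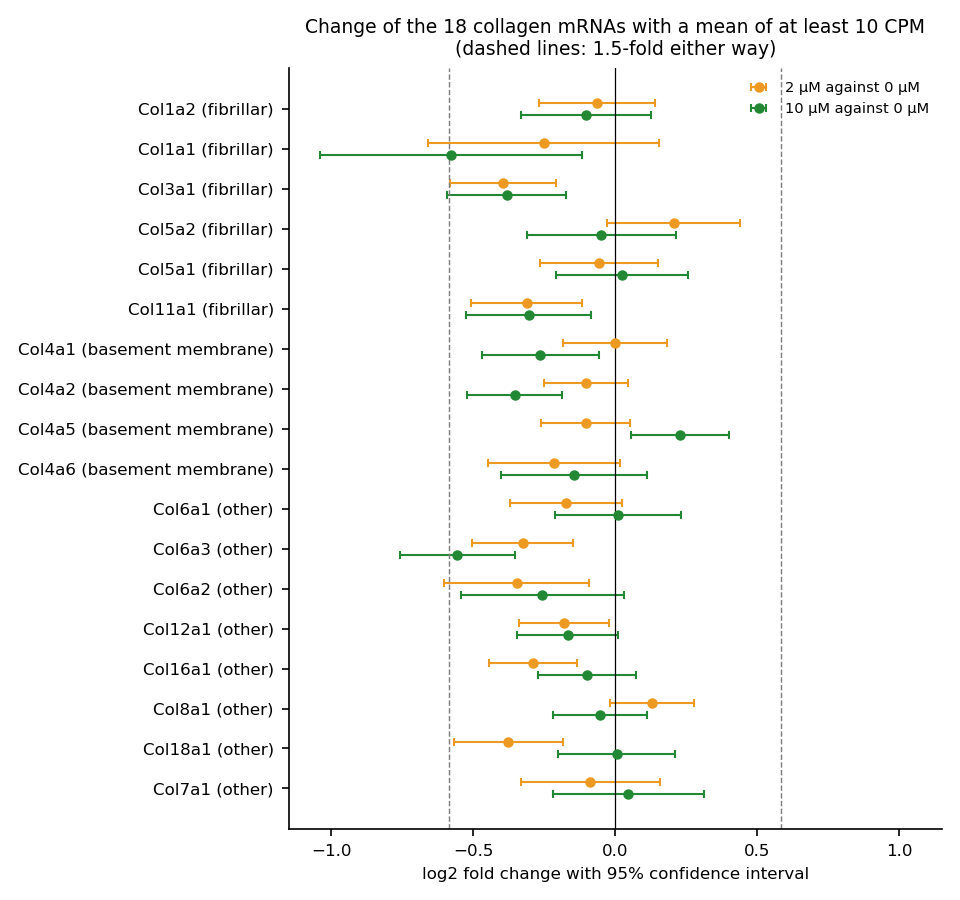
Log2 fold change with its 95% confidence interval (edgeR) for the 18 collagens with a mean of at least 10 CPM, at 2 µM (orange) and 10 µM (green) against 0 µM, with dashed lines at 1.5-fold. Col6a3, Col3a1 and Col11a1 have both intervals below 0, Col6a2, Col12a1, Col16a1 and Col18a1 that of 2 µM, and Col1a1, Col4a1, Col4a2 and Col4a5 have the 10 µM interval away from 0.

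Among the fibrillar collagens, Col3a1, the chain of the fine fibrils of skin and vessels (chr1:45311538-45349706), was lower in all treated libraries. It was counted at 626, 606 and 617 CPM at 0 µM, 493, 491 and 423 at 2 µM, with 510 and 436 at 10 µM. The distance to the untreated libraries was about the same at both doses. The log2 fold change was −0.39 (SE 0.0845, adjusted p = 0.0300, edgeR) at 2 µM and −0.38 (SE 0.0953, adjusted p = 0.0220) at 10 µM, short of both thresholds, and 0.012 between the doses.

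Col1a1, the major chain of type I collagen (chr11:94936224-94953042), spread too widely for a call. It was counted at 826, 1127 and 1295 CPM at 0 µM, 884, 952 and 894 at 2 µM, with 915 and 536 at 10 µM. Groups overlapped at both doses, and the second 10 µM library alone lay below all others. The log2 fold change was −0.25 (SE 0.185, adjusted p = 0.464, edgeR) at 2 µM and −0.58 (SE 0.211, adjusted p = 0.0936) at 10 µM, with an interval from −1.04 to −0.12. Without the second 10 µM library it was −0.27, and without the first −1.05. In that second library, genes of high GC content stood lowest against genes of low GC content, by −0.10 on the log2 scale, where the other libraries ran from −0.05 to 0.08. The exons of Col1a1 are 58.9% GC. The part of GC content in this value was not tested.

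Col1a2 (chr6:4504814-4541544), the partner chain, was the most counted collagen, at 3250, 3114 and 3129 CPM at 0 µM, 3170, 3209 and 2703 at 2 µM, with 3151 and 2744 at 10 µM. Groups overlapped, and the log2 fold change was −0.06 (interval −0.27 to 0.14) at 2 µM and −0.10 (−0.33 to 0.13) at 10 µM, both inside 1.5-fold. As protein, the type I molecule takes 2 Col1a1 chains to 1 Col1a2 chain, and only mRNA was measured here. Per kb the Col1a1 level was 0.650 ± 0.154 of that of Col1a2 at 0 µM (0.310 by longest transcript). The value of this ratio therefore hangs on the exon length chosen, and its change with dose does not.

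As a log2 ratio of counts within a library, Col1a1 to Col1a2 was −1.57 ± 0.364 at 0 µM, −1.73 ± 0.125 at 2 µM and −2.07 ± 0.404 at 10 µM (SD, n = 3, 3 and 2). It changed by −0.16 at 2 µM (p = 0.6, two-sided exact permutation test, where the smallest possible p was 0.1) and by −0.50 at 10 µM (p = 0.4, smallest possible 0.2). With so few libraries neither test could reach a threshold of 0.05. The change at 10 µM was larger than the untreated SD, and the groups overlapped. Without the second 10 µM library it was −0.21, less than that SD, and without the first −0.78. The log2 ratio of Col3a1 to Col1a1 was −0.79 at 0 µM, −0.96 at 2 µM and −0.57 at 10 µM, changes of −0.17 (p = 0.6, exact permutation test) and 0.22 (p = 0.4). At 2 µM its sign turned without the first untreated library (0.023), and at 10 µM without the second 10 µM library (−0.057).

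Of the type V chains, which set fibril diameter, Col5a2 and Col5a1 overlapped between all groups. Col5a2 was counted at 612, 539 and 515 CPM at 0 µM, 705, 656 and 561 at 2 µM, with 589 and 485 at 10 µM, with log2 fold changes of 0.21 and −0.05. Col5a1 had 366, 411 and 398 CPM at 0 µM, 383, 402 and 345 at 2 µM, with 442 and 354 at 10 µM, changes of −0.06 and 0.02. Neither gene passed the threshold at either dose. Col11a1, a related fibril chain, ran from 129 to 147 CPM at 0 µM, 105 to 116 at 2 µM and 102 to 124 at 10 µM, below the untreated range in all 5 treated libraries, with log2 fold changes of −0.31 (adjusted p = 0.0743, edgeR) and −0.31 (adjusted p = 0.0651). The low fibrillar chains Col2a1, Col5a3, Col11a2, Col24a1 and Col27a1 lay between 0.83 and 6.04 CPM in all libraries, with log2 fold changes between −0.15 and 0.26 at both doses.

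In the basement membrane class the paired genes Col4a1 (chr8:11198423-11312826) and Col4a2 (chr8:11312805-11449287), which lie head to head and share 22 bases of exon on opposite strands, were lower at 10 µM. Col4a1 was counted at 520, 498 and 476 CPM at 0 µM, 521, 525 and 447 at 2 µM, with 438 and 392 at 10 µM. Its 10 µM libraries lay below all others, while the 2 µM libraries overlapped the untreated ones. The log2 fold change was −0.0022 (adjusted p = 0.993, edgeR) at 2 µM and −0.26 (adjusted p = 0.0874) at 10 µM. Col4a2 was counted at 238, 236 and 238 CPM at 0 µM, 224, 226 and 213 at 2 µM, with 197 and 175 at 10 µM. Its groups were in order of dose with no overlap, and the log2 fold change was −0.10 (adjusted p = 0.406, edgeR) and −0.35 (SE 0.0765, adjusted p = 0.0118). At 10 µM it missed both thresholds, that on p narrowly, and its interval lay inside 1.5-fold.

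The ratio of the pair was near 2 to 1 in counts at every dose. In log2 counts Col4a1 to Col4a2 was 1.07 ± 0.0648 at 0 µM, 1.17 ± 0.0846 at 2 µM and 1.16 ± 0.00437 at 10 µM, changes of 0.10 (p = 0.3, exact permutation test) and 0.09 (p = 0.2). The smallest possible p was 0.1 and 0.2, so that no call could be made. Both 10 µM ratios lay above all untreated ones. Per kb the ratio was 1.86 ± 0.0831 at 0 µM (2.05 ± 0.0914 by longest transcript). This is a ratio of mRNA, whereas the 2 to 1 of the assembled molecule counts protein chains.

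The second expressed head-to-head pair lies on chromosome X. Col4a5 (chrX:141475385-141689234), a chain of kidney and skin basement membranes, was counted at 119, 109 and 114 CPM at 0 µM, 107, 111 and 99.2 at 2 µM, with 136 and 130 at 10 µM. Both 10 µM libraries lay above all others. The log2 fold change was −0.10 at 2 µM, 0.23 (adjusted p = 0.0779, edgeR) at 10 µM and 0.33 (adjusted p = 0.0115) between the doses, none of them called. Its partner Col4a6 ran from 23.2 to 26.2 CPM at 0 µM, 19.1 to 24.6 at 2 µM and 21.6 to 24.1 at 10 µM, with overlap at both doses. Col4a3 and Col4a4, chains of the mature glomerular membrane, lay between 0.53 and 1.80 CPM, and both were below their untreated range at 2 µM, by −0.57 and −0.46 on the log2 scale (adjusted p = 0.353 and 0.401, edgeR).

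The smallest adjusted p among collagens at 10 µM was in type VI, in the gene Col6a3 (chr1:90765923-90843971), the large chain of the beaded filaments that surround cells. It was counted at 2224, 2269 and 2351 CPM at 0 µM, 1675, 1831 and 1956 at 2 µM, with 1505 and 1597 at 10 µM. The 3 groups did not overlap and stood in order of dose. The log2 fold change was −0.33 (SE 0.0812, adjusted p = 0.0493, edgeR) at 2 µM and −0.56 (SE 0.0921, interval −0.76 to −0.35, adjusted p = 0.00292) at 10 µM. At 10 µM it passed the threshold on p but, at 0.68 of the untreated level, missed the fold threshold, and it was the only collagen with an adjusted p under 0.01 in edgeR, beside 5.23% of all genes. At 2 µM and between the doses 0 of 40 collagens had such a p, beside 0.748% and 10.8%. Col6a3 was called lower at 10 µM by DESeq2 (−0.59, adjusted p = 5.66e-08). It was also called by edgeR with no filter on low counts (−0.60, adjusted p = 0.00019). Leaving out untreated replicate 1 also gave a call (−0.60, adjusted p = 0.00124, edgeR). Its adjusted p exceeded 0.01 without untreated replicate 2 (0.0123, edgeR), untreated replicate 3 (0.0157) or 2 µM replicate 2 (0.0104). It stayed under 0.01 without 2 µM replicate 1 (0.00383) or 3 (0.00374). Leaving out either 10 µM library leaves 1 library at that dose, so that no p is given and no call is read from those fits. The change was −0.54 without 10 µM replicate 1 and −0.63 without 10 µM replicate 2. Over all alternatives it ran from −0.63 to −0.34.

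The libraries of its partner chains overlapped between 0 and 10 µM. Col6a1 (chr10:76708792-76726168) was counted at 1108, 992 and 938 CPM at 0 µM, 966, 922 and 806 at 2 µM, with 1045 and 993 at 10 µM, with log2 fold changes of −0.17 (interval −0.37 to 0.03) and 0.0089 (−0.21 to 0.23). Each dose overlapped the untreated libraries, and both 10 µM libraries lay above all 2 µM libraries, by 0.18 (adjusted p = 0.218, edgeR). Col6a2 (chr10:76595762-76623630) was counted at 314, 408 and 411 CPM at 0 µM, 289, 317 and 285 at 2 µM, with 354 and 278 at 10 µM. The first untreated library overlapped the treated ones, and the log2 fold changes were −0.35 (adjusted p = 0.121, edgeR) and −0.26 (adjusted p = 0.217). The difference between Col6a3 and its partners was not tested. The related chains Col6a4, Col6a5 and Col6a6 lay between 0.88 and 2.20 CPM.

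The fibril-associated Col12a1 was counted at 613, 670 and 677 CPM at 0 µM, 553, 569 and 609 at 2 µM, with 591 and 573 at 10 µM. All treated libraries lay just below the untreated ones, by −0.18 and −0.17 on the log2 scale (adjusted p = 0.181 and 0.193, edgeR). Col16a1 had 160, 140 and 152 CPM at 0 µM, 124, 122 and 125 at 2 µM, with 136 and 145 at 10 µM. It was below its untreated range only at 2 µM, by −0.29 (adjusted p = 0.0449, edgeR), and by −0.10 (adjusted p = 0.437) at 10 µM.

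Col18a1, the basement membrane zone collagen whose end is released as endostatin, was also lowest at 2 µM. It was counted at 16.9, 17.2 and 17.1 CPM at 0 µM, 13.9, 12.6 and 13 at 2 µM, with 17.3 and 16.9 at 10 µM. The 2 µM libraries lay apart below all others, by −0.38 (adjusted p = 0.0376, edgeR) against 0 µM, and 10 µM exceeded 2 µM by 0.38 (adjusted p = 0.0162), neither a call. Its relative Col15a1 had 3.11 to 3.41 CPM at 0 µM, 1.87 to 2.44 at 2 µM and 2.56 to 2.73 at 10 µM.

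Col8a1, a short-chain network collagen of vessel walls, was the only collagen above its untreated range in all 2 µM libraries, at 154, 157 and 140 CPM against 135, 140 and 137, a change of 0.13 (adjusted p = 0.294, edgeR). At 10 µM it had 132 and 133 CPM. Col7a1, the anchoring fibril chain, lay between 9.04 and 11.5 CPM in all libraries, and Col17a1, a hemidesmosome collagen, between 2.99 and 5.11. The cartilage chains Col9a1 and Col9a3 were higher in both 10 µM libraries, Col9a1 at 1.34 and 1.01 against 0.52 to 0.89 CPM and Col9a3 at 3.48 and 4.39 against 2.39 to 3.17 CPM. Neither passed the test (adjusted p = 0.182 and 0.135, edgeR), while Col2a1 overlapped (−0.07) and the cartilage markers Acan and Sox9 were lower in both 10 µM libraries. Col9a3 shares 234 bases of exon with Tcfl5 on the opposite strand, whose reads may be mixed in if counting ignored strand. Tested collagens not yet given, Col14a1, Col19a1, Col20a1, Col22a1, Col23a1, Col25a1, Col28a1 and Col9a2, lay between 0.31 and 4.95 CPM.

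Read against the promoter sequences, the 8 genes of at least 10 CPM with a G-run motif had a median log2 fold change of −0.13 at 2 µM (from −0.38 in Col18a1 to 0.13 in Col8a1) and −0.02 at 10 µM (from −0.26 in Col6a2 to 0.05). The 7 matched genes without it, among them Col3a1, Col6a3 and all 4 expressed type IV genes, had medians of −0.21 and −0.31, from −0.39 to −0.0022 and from −0.56 to 0.23. These ranges overlapped at both doses, and Col1a1, Col5a2 and Col12a1 entered neither set.

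Of the machinery around collagen, 5 genes were called at 1 of the doses where the collagens themselves were not. A list of 71 genes covered procollagen modification and folding, secretion, propeptide cleavage and cross-linking, receptors and binding proteins, and 66 of them were tested. At 2 µM 1 was called higher and 0 lower (0.119% and 0.378% of all genes). At 10 µM 0 were called higher and 4 lower (1.95% and 1.14%). Of these 4, 2 were among 18 genes of modification and folding and 2 among 13 of cleavage and cross-linking. Called at 10 µM were 0 of 7 secretion genes, 0 of 8 receptors and 0 of 20 binding proteins, which is near the background, and the groups were not tested against each other. By unadjusted p under 0.05, 20 of 66 were lower and 2 higher at 2 µM (11.2% and 10.1% of all genes), and 17 lower and 6 higher at 10 µM (14.6% and 14.8%).

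P4ha2, a catalytic subunit of prolyl 4-hydroxylase, which stabilizes the triple helix, was lower at 10 µM. It was counted at 90.3, 81.9 and 85.9 CPM at 0 µM, 66.2, 66.6 and 67.8 at 2 µM, with 44.6 and 51.5 at 10 µM. The 3 groups did not overlap and stood in order of dose, and the log2 fold change at 10 µM was −0.84 (SE 0.0861, adjusted p = 0.000114, edgeR). Plod2, the lysyl hydroxylase of the cross-linking ends of collagen, was counted at 108, 97.3 and 103 CPM at 0 µM, 70.2, 79.5 and 71.4 at 2 µM, with 61.8 and 62.0 at 10 µM. It was lower by −0.73 (SE 0.0845, adjusted p = 0.000282, edgeR) at 10 µM, and at 2 µM by −0.48 (adjusted p = 0.00681), under the fold threshold.

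Loxl1 and Loxl2 belong to the lysyl oxidases, which cross-link collagen and elastin. Loxl1 was counted at 692, 759 and 705 CPM at 0 µM, 757, 731 and 613 at 2 µM, with 528 and 377 at 10 µM, a change of −0.67 (SE 0.137, adjusted p = 0.00882, edgeR) at 10 µM. The second 10 µM library was the lowest, and without it the change was −0.47, with the call lost (adjusted p = 0.0687, edgeR). The call was also lost on leaving out any of 4 other libraries, with adjusted p from 0.0111 to 0.0331, and with total counts alone. With GC correction the change was −0.58, just short of both thresholds (adjusted p = 0.01002, edgeR). Loxl2 was counted at 13.3, 12.3 and 13.8 CPM at 0 µM, 10.3, 9.54 and 9.69 at 2 µM, with 8.61 and 7.91 at 10 µM, a change of −0.67 (SE 0.115, adjusted p = 0.00371, edgeR). This call was lost on leaving out either 10 µM library (adjusted p = 0.0147 and 0.0367) or the third untreated one (0.0227), with total counts alone (0.0130) and when only the groups compared were fitted (0.0156). With the replicate number as a block, Loxl1 (adjusted p = 0.0113, edgeR) and Loxl2 (0.0125) were not called. Thbs1, a matricellular protein that binds collagen, rose at 2 µM, from 479, 449 and 438 CPM to 741, 762 and 770, and stood at 449 and 450 at 10 µM. Its change was 0.73 (SE 0.0667, adjusted p = 0.000514, edgeR) at 2 µM and −0.02 at 10 µM.

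Among the 2 highest companions per length of each group, Loxl1 was called as given, and the others did not pass the test. Serpinh1, the collagen chaperone HSP47, stood at 1148 ± 134 CPM at 0 µM, 1195 ± 65.5 at 2 µM and 1210 ± 65.6 at 10 µM (SD, n = 3, 3 and 2). P4hb, the second subunit of prolyl 4-hydroxylase, changed by −0.03 and −0.24 on the log2 scale (adjusted p = 0.852 and 0.0940, edgeR). Of the secretion genes, Mia3, which loads procollagen into transport carriers, changed by −0.02 and −0.11, and Sar1b by 0.17 and 0.06. Pcolce, an enhancer of propeptide cleavage, was at 439, 406 and 399 CPM at 0 µM and at 328 and 303 at 10 µM, −0.39 on the log2 scale (adjusted p = 0.0102, edgeR). Itgb1, the shared chain of collagen-binding integrins, changed by −0.01 and −0.12, and the collagen receptor Ddr2 by −0.19 and 0.03. Sparc, a collagen-binding glycoprotein, changed by 0.02 and −0.11, and Fn1, the fibronectin on which collagen fibrils assemble, by −0.42 (adjusted p = 0.118, edgeR) and −0.22, with overlapping libraries.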

How the data were processed

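Counts per gene were used as deposited. Per the labels and the study's methods, the authors prepared stranded total RNA libraries depleted of nuclear rRNA, checked and trimmed reads (FastQC, Trim Galore, Cutadapt), aligned them to mm10 with STAR 2.5.2a, and assigned fragments that mapped uniquely to genes with featureCounts. The version, annotation and strand setting of counting are not given in the sources used here. Unique mapping and an unknown strand setting can lower or mix the counts of overlapping genes.

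Total counts ran from 10455965 to 26688121 per library. edgeR 4.0.16 in R 4.3.3 gave the tests (TMM, filterByExpr by dose, glmQLFit and glmQLFTest, Benjamini-Hochberg over 14296 genes), with all 8 libraries and the dose as the only factor. A gene was called where the adjusted p was under 0.01 and the change exceeded 1.5-fold. Standard errors are the log2 fold change divided by the square root of F. Ratios used 0.5 added to each count and a two-sided exact permutation test (scipy 1.17.1). Even the closest replicates had a chi-square per degree of freedom of 3.23, a spread beyond counting error. Each library was therefore treated as 1 replicate, although this value cannot tell separate cultures from separate library preparations. The fits were tested on simulated data.

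Gene positions and exon lengths came from GENCODE M21 (GRCm38) and matched all 44 collagens and 98.5% of nuclear genes by symbol. Promoter sequences came from RefSeq (GRCm38.p6), and 1 stretch is not reported here. Classes, companion and marker lists were written from general knowledge, and members and lists were chosen with earlier results of these data known. Every tested collagen could be named, and companions were named if called at either dose or among the 2 highest per length of their group. Alternatives were DESeq2 1.42.0, other scalings, filters, GC correction, a replicate block and leaving out each library.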

Additional observations from a re-analysis of the deposited data

Results flagged for a closer look

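Among the collagen companions, 4 genes differed between the doses by the direct contrast of 10 µM with 2 µM (edgeR quasi-likelihood test, Benjamini-Hochberg over 14296 genes), in which 3.92% of all genes were called higher and 1.59% lower. No collagen was among them. Thbs1 was lower at 10 µM by −0.75 on the log2 scale (adjusted p = 7.7e-05, edgeR), with 449 and 450 CPM against 741, 762 and 770. Loxl1 was lower by −0.63 (adjusted p = 0.0075, edgeR), and without the second 10 µM library by −0.45 with the call lost. Itga1, a collagen-binding integrin chain, and Pcolce2, a relative of Pcolce, were called in this contrast alone and are named after their values were seen. Itga1 was higher by 0.70 (adjusted p = 0.00731, edgeR), with 8.12 and 8.49 CPM at 10 µM against 6.08, 4.57 and 4.76 at 2 µM and 6.64 to 7.58 at 0 µM. Its call was lost with DESeq2 (adjusted p = 0.0165), with the replicate block (0.0193, edgeR) and without either 10 µM library (0.0360 and 0.0561), among others. Pcolce2 was lower by −0.72 (adjusted p = 0.00476, edgeR), with 5.68 and 6.47 CPM at 10 µM against 9.70, 10.8 and 9.51 at 2 µM and 7.11 to 8.51 at 0 µM, and its call was lost without either 10 µM library (adjusted p = 0.0315 and 0.0137, edgeR), without the first or second 2 µM library (0.0118 and 0.0220) and with total counts alone (0.0138).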

How the results depend on the processing

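No collagen was called higher under any alternative. The number called lower at 10 µM was 1 in place of 0, Col6a3 each time, with no filter on low counts, with DESeq2 and with no minimum fold change, and ran from 0 to 1 when single libraries were left out, with 1 without the first untreated library. Scaled by total counts alone, the 10 µM medians were 0.17 (fibrillar), 0.017 (basement membrane) and 0.22 (other) against 0 µM, and 0.15 and 0.28 for the first 2 classes against 2 µM, where the median of all genes was 0.23 and 0.16. Between the doses the basement membrane median, 0.14 over all 6 members, was −0.083 with at least 10 counts in every library and −0.090 over members of at least 10 CPM, where the fibrillar median at 10 µM was −0.20. These settings test fewer members, and that of 10 CPM was chosen after seeing the data. With GC correction the 10 µM medians were 0.037 (fibrillar), −0.15 (basement membrane) and 0.075 (other), beside 0.038 for all genes. With GC correction and the replicate block they were −0.0049, −0.18 and 0.020, beside 0.038. Leaving out single libraries, the medians ran from −0.18 to 0.027 (fibrillar) and −0.32 to −0.14 (basement membrane) at 10 µM, and from −0.13 to 0.082 and −0.19 to 0.23 between the doses, the low ends without the first 10 µM library. The log2 ratio of Col3a1 to Col1a1 changed by −0.31 to 0.023 at 2 µM and by −0.057 to 0.49 at 10 µM. The cause of these shifts was not tested.

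Same-numbered 0 and 2 µM libraries had correlated deviations of 0.20, 0.08 and 0.16, above those of differently numbered ones (−0.15 to 0.06). Same-numbered correlations with 10 µM were negative. With 2 libraries at 10 µM the deviations are mirror images, so that these signs cannot decide on a pairing. Whether a shared number stands for a shared batch was not tested. With the replicate block 0 collagens were called in any comparison, and the medians at 10 µM were −0.12, −0.25 and −0.05. The block ended the calls of Loxl1 and Loxl2 at 10 µM and of Itga1 between the doses. Loxl1, Loxl2, Itga1 and Pcolce2 also lost their call under other alternatives, Plod2 with total counts alone (−0.52 at 10 µM) and Thbs1 at 2 µM without the second 2 µM library (adjusted p = 0.0104, edgeR). P4ha2 at 10 µM kept it under all that were run. At low counts, precision limits the 26 collagens under 10 CPM most.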
